A study of Bos taurus with 12 samples.

Results

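The 9 genes described here belong to the mitochondrial genome and encode subunits of the respiratory chain: ND1, ND2, ND4 and ND5 of complex I, CYTB of complex III, COX1, COX2 and COX3 of complex IV, and ATP6 of complex V. They were chosen by their Ensembl cattle gene IDs, with no threshold on measured values but with earlier results of these data known, and are 9 of the 24616 rows of the count table. In the order above, the IDs are ENSBTAG00000043558, ENSBTAG00000043559, ENSBTAG00000043568, ENSBTAG00000043563, ENSBTAG00000043550, ENSBTAG00000043561, ENSBTAG00000043556, ENSBTAG00000043560 and ENSBTAG00000043584. The table holds IDs alone, and no reference table used here pairs them with names, so the names are those given with the list of members and were not checked further. In RefSeq's cattle assembly ARS-UCD2.0, whose relation to the build behind the counts is not given in the sources used here, the mitochondrial chromosome carries 13 protein-coding genes, 2 ribosomal RNA genes and 22 transfer RNA genes. The other 4 protein-coding genes (ND3, ND4L, ND6 and ATP8) and the ribosomal RNAs could not be assigned to rows, so the summed values below are those of 9 genes and not of all mitochondrial RNA.

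The libraries came from the fat layer of milk of 6 Holstein cows in early lactation. Every cow gave 1 control library, coded 0 and labelled control, and 1 library with lysine supplied beyond the rumen, coded 63 and labelled as 63 days of treatment, so each group had 6 libraries from the same 6 animals. The codes B (1 or 2, constant within a cow) and P (1 to 4, different between the libraries of a cow) are not explained in the labels, nor is it settled whether the code 63 is a duration or an amount. Totals ran from 5.45 to 56.6 M counts per library (M, the metric prefix mega). Milk fat globules enclose remnants of secretory cell cytoplasm, which serve as a source of mammary RNA. In the control library of cow 4394, 10.8% of the 11323 tested genes had no count, against 0 to 3.25% in the other 11 libraries. The edgeR tests, the mean difference of the summed share and the median correlation of within-cow differences are given below with and without this cow. Markers of mammary epithelium or of leukocytes could not be looked up for want of gene names.

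The respiratory chain passes electrons from NADH and succinate to oxygen and uses the energy released to pump protons across the inner mitochondrial membrane, and ATP synthase (complex V) makes ATP as the protons return. Most of its subunits are nuclear products, while a small core is transcribed inside the organelle, from both strands of a circular genome, as long precursors that are cut into separate messengers, mostly at the transfer RNAs between them. Milk secretion needs much ATP, and the lactating mammary epithelial cell is rich in mitochondria.

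All 9 genes passed the filter on low counts. COX1, the catalytic core of cytochrome c oxidase, received between 12797 and 118100 counts in a library, and ND2, a proton-pumping subunit of complex I, between 46 and 428. Nuclear copies of mitochondrial sequence can share reads with these genes, and how such reads were counted is not given in the sources used here. In the RefSeq table ND5 shares 17 bases with ND6, which is encoded on the opposite strand, ATP6 shares 40 bases with ATP8, and ND4 shares 7 with ND4L. With the strand setting unknown, reads from these overlaps cannot be assigned with certainty.

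Together the 9 genes took 0.43 ± 0.34% of all counts (mean ± SD, n = 12 libraries). The lysine library of cow 4394 had the lowest share, 0.115% (95% exact binomial interval 0.114 to 0.117%). The highest, 1.37% (1.36 to 1.38%), belonged to cow 4319 with lysine, which was also the library with the smallest total, 5.45 M counts. These intervals cover counting error only, since the reads carry no molecular identifiers and may repeat a molecule. The widest of the 12 intervals was 0.00976 percentage points to either side, which is small beside the range from 0.115 to 1.37%. In such bulk samples, fewer cells with many mitochondria and less mitochondrial RNA per cell cannot be told apart.

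Under control conditions the summed share was 0.495% in cow 4319, 0.310% in cow 4345, 0.213% in cow 4381, 0.476% in cow 4383, 0.566% in cow 4394 and 0.272% in cow 4408. With lysine it was 1.37%, 0.50%, 0.134%, 0.159%, 0.115% and 0.542% in the same order of cows. The 2 sets overlapped, and the share was higher with lysine in 3 of 6 cows. The group values were 0.389 ± 0.142% for control and 0.469 ± 0.478% for lysine (n = 6 each), a mean within-cow difference of 0.081 ± 0.477 percentage points that is smaller than its SD over the cows. Without cow 4319 the mean difference was -0.077 percentage points, and without cow 4394 it was 0.187. The share was lower in the deeper library of the pair in 4 of 6 cows, and the part of library depth in it was not tested.

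**Figure D1:**
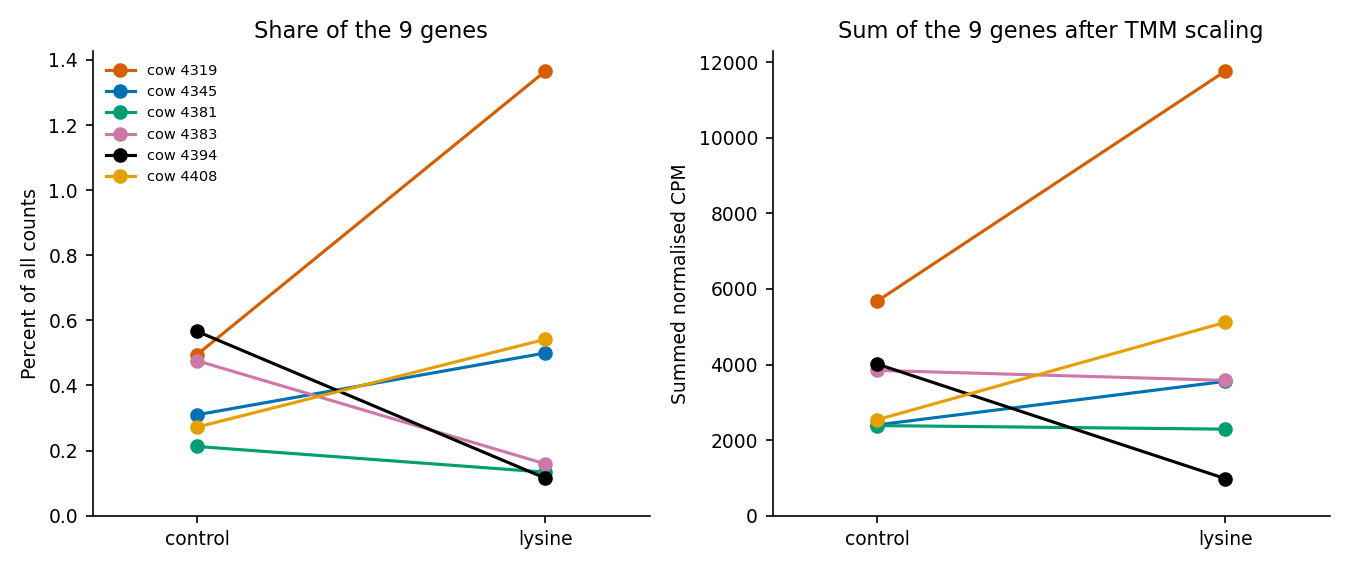
The left panel plots the summed share of the 9 genes in percent of all counts and the right panel their summed normalised CPM (TMM scaling), both on linear axes from 0, with 1 line per cow joining its control and lysine libraries. The lysine library of cow 4319 lies highest in both panels (1.37% and 11764 CPM), and that of cow 4394 lowest (0.115% and 981 CPM).

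A share of all counts depends on what else a library holds. In cows 4381 and 4383 the share with lysine was 0.629 and 0.334 times that of the control, and the 10 most abundant genes took 82.4% and 86.8% of those lysine libraries. Scaling by TMM, a trimmed mean over genes that is less affected by a few abundant ones, gave these libraries the factors 0.584 and 0.444, the lowest of all 12. On the scaled values (normalised CPM, counts scaled to a common effective library total) the ratio of lysine to control for the sum of the 9 genes was 0.960 in cow 4381 and 0.931 in cow 4383. The other 4 cows kept clear differences on both scales: the scaled ratio was 2.07 in cow 4319, 1.48 in cow 4345, 2.02 in cow 4408 and 0.244 in cow 4394. Cow 4394 thus stood opposite to cows 4319, 4345 and 4408.

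Within complex IV, the terminal oxidase, COX1 measured 3238 normalised CPM in the control library of cow 4319, 1449 in cow 4345, 1441 in cow 4381, 2374 in cow 4383, 2620 in cow 4394 and 1667 in cow 4408. Its lysine libraries measured 6661, 2213, 1397, 2068, 610 and 3078 in the same order. The groups overlapped fully, as the lysine libraries held both the highest and the lowest value. COX2, the subunit that accepts electrons from cytochrome c, ranged from 212 to 555 normalised CPM in control libraries (median 339) and from 112 to 1338 with lysine (median 399). COX3, a further core subunit of the oxidase, ranged from 367 to 976 in control (median 492) and from 168 to 1893 with lysine (median 561).

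CYTB, cytochrome b of complex III, ranged from 60.1 to 226 normalised CPM in control libraries (median 97.3) and from 23.1 to 452 with lysine (median 106). ATP6, the proton channel subunit of ATP synthase, ranged from 70.2 to 243 in control (median 97.0) and from 25.0 to 464 with lysine (median 129). For both genes the extremes with lysine were again cows 4394 and 4319.

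The complex I genes spanned a wide range of levels. ND1, a membrane subunit near the quinone site, measured 276 normalised CPM in the control of cow 4319, 83.8 in cow 4345, 85.1 in cow 4381, 149 in cow 4383, 116 in cow 4394 and 77.8 in cow 4408. With lysine it measured 552, 142, 88.2, 143, 25.5 and 204. ND4, a proton-pumping subunit, ranged from 36.3 to 95.2 in control (median 41.4) and from 8.34 to 220 with lysine (median 55.6), so that for ND1 and ND4 alike only cow 4394 was far lower with lysine.

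ND5, another proton-pumping subunit, measured 49.97, 13.6, 24.2, 25.2, 13.3 and 15.2 normalised CPM in the controls of cows 4319, 4345, 4381, 4383, 4394 and 4408. Its lysine libraries measured 149, 17.9, 26.0, 36.2, 6.10 and 46.4 in that order. ND2 measured 15.8, 4.30, 4.45, 5.68, 3.94 and 2.62 in the controls, and 35.3, 5.25, 6.51, 9.41, 2.91 and 8.79 with lysine. Both genes were higher with lysine in 5 of 6 cows, and lower in cow 4394.

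**Figure D2:**
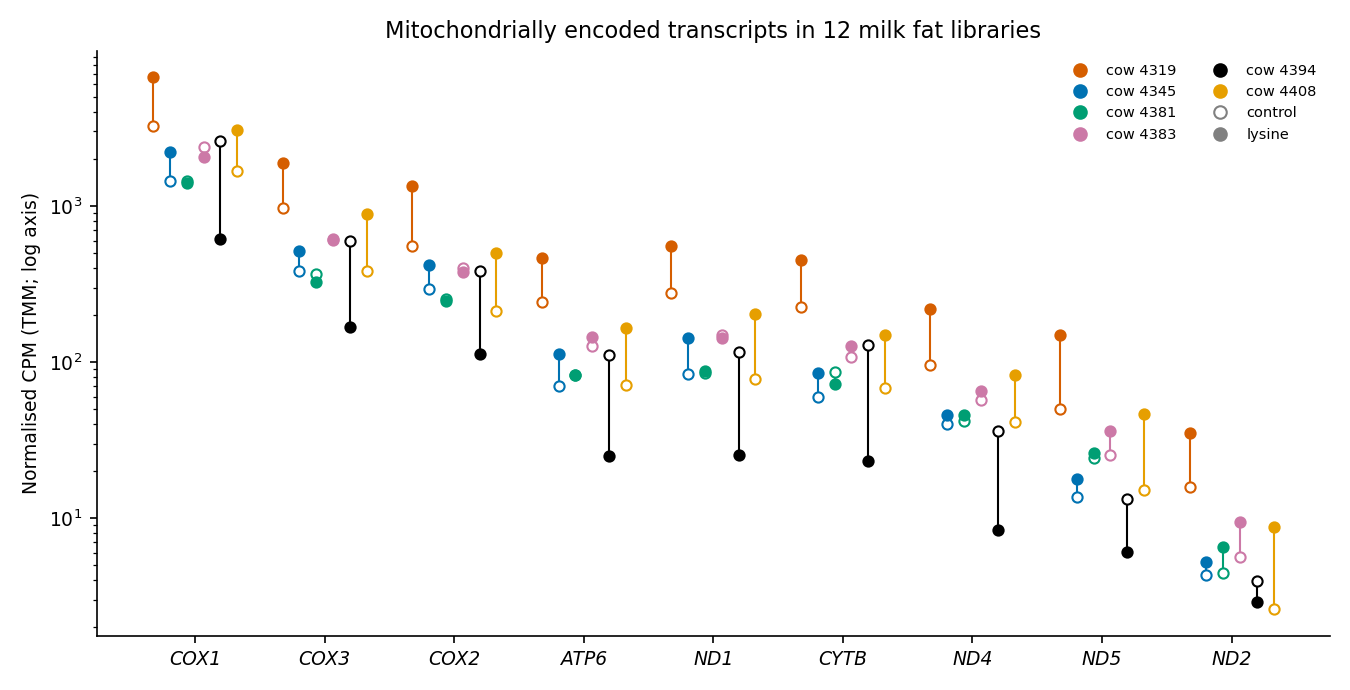
Normalised CPM (log axis) of each of the 9 genes in all 12 libraries, with open points for control and filled points for lysine, coloured by cow and joined within a cow. Cow 4319 lies highest for all 9 genes in both groups, and the filled point of cow 4394 lies below its open point for all 9.

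The main comparison set lysine against control within cows. None of the 9 genes passed the threshold of an adjusted p under 0.05 in the quasi-likelihood test of edgeR, blocked by cow, against a background of 0.00% of the 11323 genes tested, and none had an unadjusted p under 0.05 (2.53% of all genes did). DESeq2 and limma voom also called 0 of the 9, with 1 and 2 of them at an unadjusted p under 0.05, where 4.80% and 5.16% of all genes were. Each of the 9 had an adjusted p of 1 by edgeR. The fitted log2 fold changes of the 9 had a median of 0.20, where all tested genes had 0.04, and 9 of 9 lay above 0, as did 54.2% of all tested genes. With library totals as the only scaling, 2 of the 9 lay above 0 and their median was -0.12, against -0.26 for all genes.

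COX1 had a log2 fold change of 0.08 ± 0.36 (SE, 6 cows; 95% interval -0.72 to 0.87, unadjusted p = 0.834 by edgeR) and was higher with lysine in 3 of 6 cows. CYTB had 0.09 ± 0.39, COX3 0.13 ± 0.34, ND4 0.16 ± 0.35, ATP6 0.20 ± 0.36, COX2 0.22 ± 0.35 and ND1 0.22 ± 0.38, all smaller than their standard errors. ND5 had 0.53 ± 0.32 (95% interval -0.16 to 1.23, unadjusted p = 0.121 by edgeR). ND2 had the largest value, 0.68 ± 0.31 (95% interval -0.007 to 1.36, unadjusted p = 0.052 by edgeR). A change of the size of its upper bound, or none at all, was therefore within the error for ND2.

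Cow 4394, the only cow in which all 9 genes were lower with lysine, weighed heavily on these values. The 9 genes vary together, so counts of them are not separate evidence. Without cow 4394 the median log2 fold change of the 9 genes was 0.58, against 0.02 for all genes. Of the 9, 7 had an unadjusted p under 0.05 by edgeR, where 5.49% of 11565 genes did. None passed after adjustment (adjusted p = 0.846 for each by edgeR; 0.00% of all genes passed). ND5 then had 0.84 ± 0.25 and ND2 0.89 ± 0.27 (SE, 5 cows). Without cow 4319 the median of the 9 was -0.002, and without cow 4408 it was -0.014, with 4 of the 9 above 0 in each case.

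**Figure D3:**
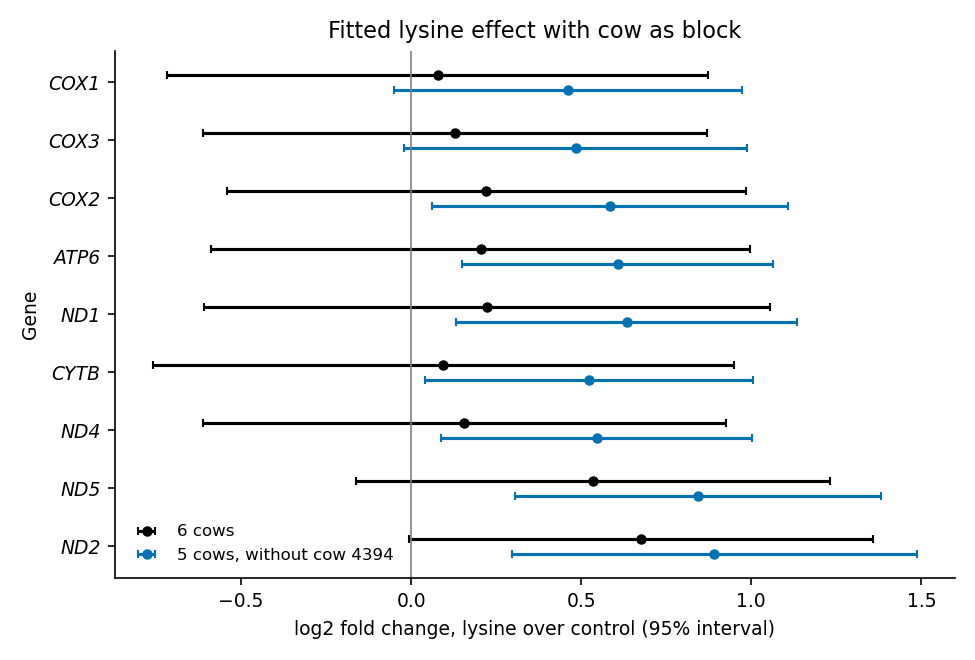
Fitted log2 fold change of lysine over control for each gene with its 95% interval, from all 6 cows (black) and from the 5 cows without cow 4394 (blue). With 6 cows all 9 intervals include 0, and with 5 cows those of COX1 and COX3 do.

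The 9 genes varied together. The within-cow log2 difference of lysine minus control was positive for 9 of 9 genes in cows 4319, 4345 and 4408, with medians of 1.04, 0.51 and 1.21. It was negative for 9 of 9 in cow 4394 (median -2.10, from -2.47 for CYTB to -0.43 for ND2). In cow 4381 it was positive for 5 of 9 (median 0.008) and in cow 4383 for 6 of 9 (median 0.18). The median over all tested genes lay between -0.06 and 0.09 in every cow. TMM scaling itself places such medians near 0, here and in the fits that use it.

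**Figure D4:**
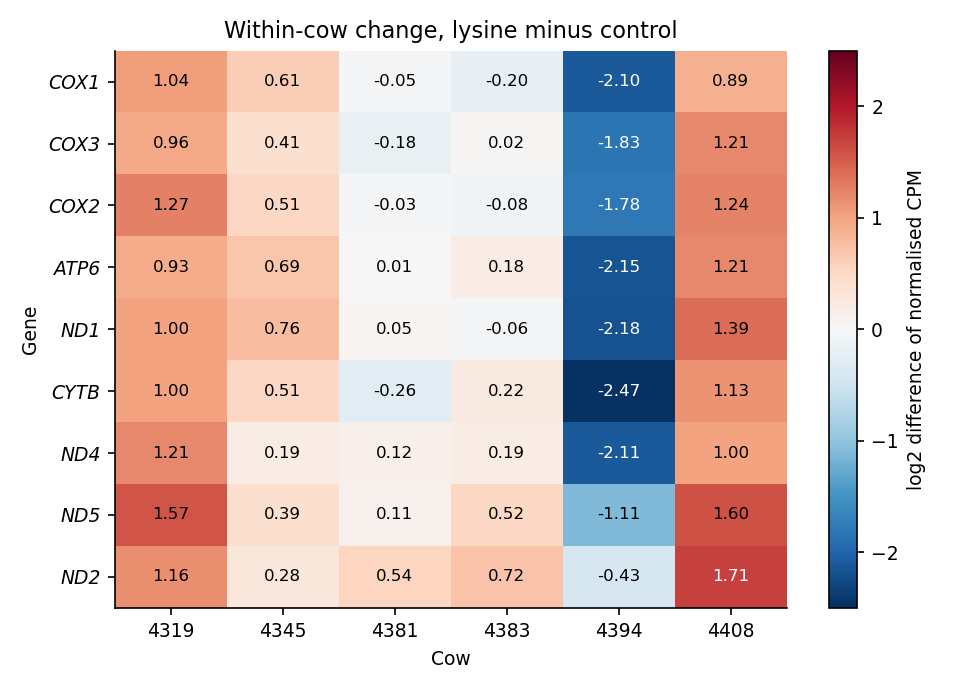
Each cell gives the log2 difference of normalised CPM, lysine minus control, of 1 gene (rows) in 1 cow (columns), with red for higher and blue for lower with lysine. The columns of cows 4319, 4345, 4394 and 4408 each hold a single sign, and those of cows 4381 and 4383 hold both. ND2 and ND5 (-0.43 and -1.11) are the palest in cow 4394.

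Over the 36 pairs of genes, Pearson's r of the within-cow differences ranged from 0.823 to 0.996 (median 0.975, n = 6 cows) and Spearman's rho from 0.71 to 1 (median 0.91). By exact permutation, with Benjamini-Hochberg adjustment over the 36 pairs, 35 Pearson and 26 Spearman coefficients had an adjusted p under 0.05, and the largest adjusted p was 0.05 for Pearson and 0.136 for Spearman. Without the 2 cows farthest from the median of the first gene of a pair, r ranged from 0.30 to 0.99 (median 0.89). Leaving out cow 4394 alone gave a median r of the within-cow differences of 0.918. Over the 6 cow means, r ranged from 0.894 to 0.998 (median 0.968) and rho from 0.71 to 1 (median 0.94), with 36 and 27 pairs at an adjusted p under 0.05 by exact permutation. Without the 2 farthest cows, r of the cow means ranged from -0.03 to 0.99 (median 0.79). For some pairs the relation of the cow means therefore rested on those cows. Some within-cow differences depended on their 2 farthest cows as well. The lowest r without them was that of ND1 and ND2, 0.30 against 0.86 with all 6 cows. The genes of a pair share each library's scaling factor, which by itself adds to such correlations. Pairs of other genes were not tested in this way, so these counts of pairs have no background share. The 36 pairs also share genes and are not separate evidence.

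Ratios between the genes do not depend on that scaling. Over the 12 libraries the SD of the log2 ratio of counts ranged from 0.12 to 0.63 over the 36 pairs (median 0.36), whereas the SD of the log2 level of single genes ranged from 0.84 for COX1 to 1.17 for ND5. ND1 and ATP6 held the steadiest ratio, with 0.99 to 1.26 counts of ND1 for each count of ATP6. COX1 to COX3 came next, with a count ratio of 3.32 to 4.38 and an SD of 0.15 on the log2 scale. The least steady pair was ND2 and COX1, with an SD of 0.63. Pairs within complex IV had SDs of 0.15 to 0.19. Among all tested genes the median SD of the log2 level over the 12 libraries was 0.64, and that of the within-cow difference was 0.79, against medians of 1.05 and 1.16 for the 9 genes.

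Within the summed counts of the 9 genes, complex IV took 87.3 ± 2.17% (mean ± SD, n = 12), complex I 6.28 ± 1.21%, complex V 3.34 ± 0.54% and complex III 3.09 ± 0.56%. These are raw counts, not divided by gene length. ND3, ND4L and ND6 of complex I and ATP8 of complex V are not among the 9, so the percentages do not give the balance of the complexes. COX1 alone took between 56.6 and 65.7%. Control libraries gave it 61.8 ± 3.28% and lysine libraries 60.0 ± 2.34% (6 libraries each), lower with lysine in 4 of 6 cows, with a mean within-cow difference of -1.76 ± 2.88 percentage points (SD).

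The parts of ND2 and ND5 were larger with lysine in 5 of 6 cows. ND2 made up 0.278, 0.179, 0.186, 0.148, 0.098 and 0.103% of the 9 in the controls of cows 4319, 4345, 4381, 4383, 4394 and 4408, and 0.300, 0.148, 0.285, 0.263, 0.296 and 0.172% with lysine. The 95% exact binomial intervals of ND2 overlapped between control and lysine in cows 4319 and 4345 and lay apart in the other 4. These intervals, like those of ND5 below, cover counting error within 1 library and not the spread between libraries. They do not measure a lysine effect. The intervals of ND2 were farthest apart in cow 4394, at 0.077 to 0.123% in control, the library with 10.8% of tested genes without a count, and 0.227 to 0.381% with lysine. ND5 made up 0.881, 0.565, 1.01, 0.656, 0.330 and 0.601% in the controls and 1.26, 0.502, 1.14, 1.01, 0.622 and 0.907% with lysine. The intervals of ND5 overlapped in cows 4345 and 4381 and lay apart in the other 4. Both genes had the smaller part with lysine in cow 4345 alone. COX2 also had the larger part with lysine in 5 of 6 cows (mean difference 0.80 ± 0.93 percentage points, SD), while ND1 and ATP6 did in 4, ND4 and COX3 in 3, and CYTB in 2. These parts were not tested, and each is tied to the others because they sum to the whole.

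Per kilobase of gene length, the 9 genes kept a fixed order. With lengths from RefSeq (681 bases for ATP6 to 1821 for ND5), COX1 was highest at 1554 ± 997 normalised CPM per kb (mean ± SD, n = 12). COX3 followed at 822 ± 584, COX2 at 620 ± 459, ATP6 at 208 ± 170, ND1 at 169 ± 146, CYTB at 116 ± 99.2, ND4 at 47.1 ± 39.0, ND5 at 19.3 ± 21.0 and ND2 at 8.39 ± 8.74. Every gene lay above the next in 12 of 12 libraries, although the ranges over libraries overlapped between neighbours. By the mean ratio within a library, the closest neighbours were ATP6 and ND1, at 1.26 (1.12 to 1.41). COX3 lay 1.33 times above COX2 on average (1.07 to 1.58), and ND1 1.46 times above CYTB (1.07 to 1.98). COX2 lay 2.28 to 4.46 times above ATP6, its next member along the RefSeq mitochondrial map after ATP8. ND2, the neighbour of COX1 on that map, was the lowest of all. How reads are spread along each gene is not shown by a table of counts.

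**Figure D5:**
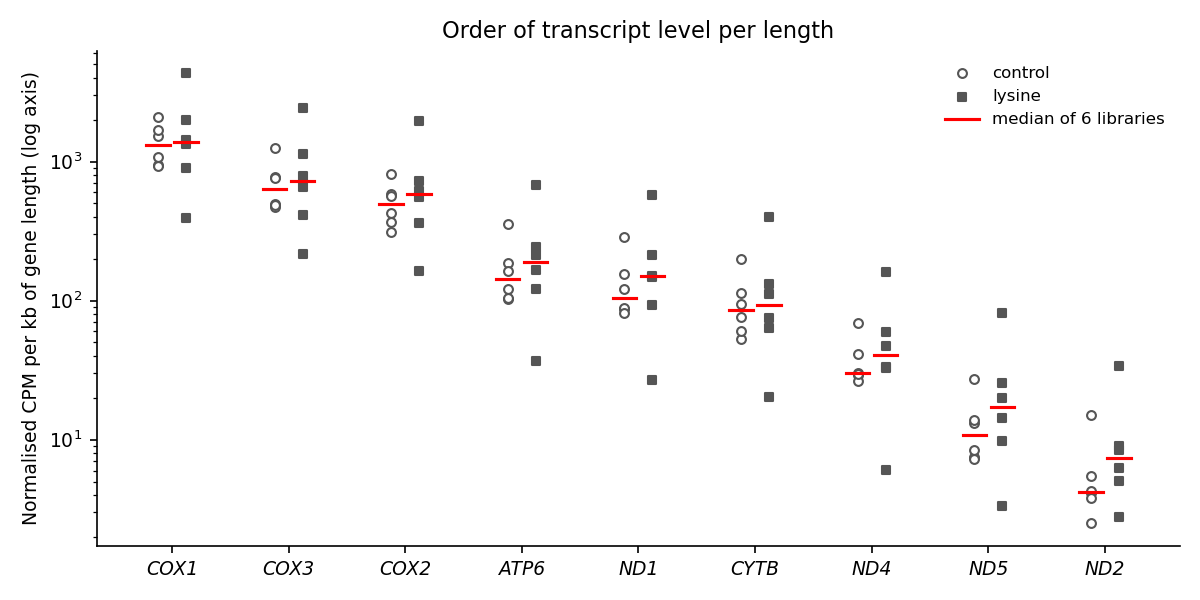
Normalised CPM per kilobase of RefSeq gene length (log axis) for each gene, with 6 control libraries as open circles, 6 lysine libraries as filled squares and red bars at the medians. The order from COX1 to ND2 is the same in all 12 libraries, and spreads over libraries exceed the steps between neighbouring genes.

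The animals were also compared with each other. In the F test of the cow terms, 0 of the 9 passed an adjusted p under 0.05 by edgeR, where 1.42% of all genes did, and 8 of 9 had an unadjusted p under 0.05, where 15.5% of all genes did. ND5 and ND2 were nearest to the threshold (adjusted p = 0.059 and 0.060 by edgeR), and COX1 farthest (adjusted p = 0.419). The 9 genes vary together, so they are not separate evidence. With the log2 library total as covariate, the unadjusted count fell from 8 to 4 of the 9. The unadjusted share of all genes was not computed for that fit. Genes called after adjustment fell from 161 to 18 of 11323, with none of the 9 among them. ND5 and ND2 then had an adjusted p of 0.148 and 0.161 by edgeR. By the geometric mean of a cow's libraries, cow 4319 was highest and cow 4394 lowest for 9 of 9 genes. The ratio of these geometric means ran from 3.67 for COX1 to 9.49 for ND5. The share of all tested genes with the same highest and lowest cow was not computed. Without cow 4319, none of the 9 was called or had an unadjusted p under 0.05 (0.815% and 15.2% of all genes by edgeR). Without cow 4394, edgeR called 6 of the 9 (ND1, ND2, ND4, ND5, CYTB and ATP6; 1.21% of all genes). DESeq2 called 8 of the 9, where it called 13.4% of all genes, and limma voom called ND2 and ND5, where it called 5.02%. ND2 and ND5 were also the 2 called by edgeR without a low-count filter (5.01% of all genes) and without cow 4408 (3.76%).

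The lysine effect was also set against the unexplained codes. In the 3 cows coded B2 the scaled ratio of lysine to control for the 9 genes summed was 1.48, 0.960 and 2.02, and in the 3 coded B1 it was 2.07, 0.931 and 0.244. No member's lysine effect differed between the codes at an adjusted p under 0.05 by edgeR's interaction test (0.00% of all genes), and none had an unadjusted p under 0.05 (6.92% of all genes). The interaction was widest for ND1, at a log2 difference of 1.11 ± 0.71 (SE; adjusted p = 0.752 by edgeR), and its median over the 9 was 0.76, against -0.04 over all genes. Without cow 4394 it was 0.23 for ND1, and the median over the 9 was -0.055, with 3 of the 9 above 0, against -0.017 over all genes.

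The order of the P codes set the 4 cows whose lysine library had the lower code against cows 4394 and 4408, where it had the higher. Again 0 of the 9 passed (0.00% of all genes by edgeR), and none had an unadjusted p under 0.05 (7.03% of all genes). The cows with the higher code stood at opposite ends: cow 4394 had the lowest ratio of lysine to control for the 9 genes summed (0.244) and cow 4408 the second highest (2.02). Without cow 4408, which leaves cow 4394 as the only animal of that order and takes its spread to be that of the rest, 7 of the 9 were called (7.43% of all genes by edgeR). Without cow 4394, which leaves cow 4408 alone on that side, all 9 interaction estimates changed sign and none was called (0.752% of all genes by edgeR).

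A further 2 rows of the table followed the 9 genes most closely among 7349 non-member genes at a mean of 5 normalised CPM or more. ENSBTAG00000043577 had a mean Pearson r of 0.95 with the 9 over the 12 libraries (0.91 to 0.98) and measured 104 ± 90.3 normalised CPM. ENSBTAG00000043571 had a mean r of 0.90 (0.86 to 0.93) and measured 33.5 ± 21.5. No name could be paired with either ID. The mean r of each member with the other 8 ran from 0.87 for ND2 to 0.96 for ATP6, and only these 2 non-members reached 0.87, while the median non-member had -0.02. These coefficients describe 12 libraries in pairs from 6 cows that share scaling factors.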

How the data were processed

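RNA of the milk fat layer was sequenced in 12 libraries, 1 control and 1 lysine library from each of 6 cows. The authors deposited raw counts of reads for every gene, unscaled whole numbers as the values show. The aligner, counter, strand setting and build were not given in the sources used here. Groups and cows come from the titles, and columns were matched by the sample descriptions. The members and gene lists were chosen with earlier results of these data known. Lists of nuclear respiratory chain genes, other mitochondrial genes and cell type markers had been set by symbol; 0 of their symbols could be matched, as none of 37063 RefSeq rows carries an Ensembl ID, so they were not tested.

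Counts were fitted with edgeR 4.0.16 (R 4.3.3): filterByExpr (minimum count 10) kept 11323 genes with 99.9% of counts, followed by TMM scaling and robust quasi-likelihood tests with cow and treatment, two-sided, with Benjamini-Hochberg adjustment over all genes. The B and P codes entered as interactions. Each standard error was derived from the fold change (log2) and its F statistic. Log2 CPM used a prior count of 2, and count ratios on the log2 scale an offset of 0.5. Permutation tests of correlations were exact over 6 cows. The pairing comes from the shared animal; deviations from group means correlated at -0.02 to 0.66 within cows, across genes. Alternatives used DESeq2 1.42.0, limma 3.58.1 (voom), other scalings, no filter, log2 totals as covariate and each cow left out. Only the lysine fit was run on simulated counts, which held no cow effect, and its outcome is not given here. The cow, B code and P order fits were not run on simulated counts. All 9 members are named, with the 2 non-members of highest mean correlation. Totals of 5.45 to 56.6 M counts set the counting error of each library, but not the spread between cows.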

Additional observations from a re-analysis of the deposited data

Results flagged for a closer look

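Of 38 groups of 6 libraries, 14 held a value set apart at Dixon's 95% critical value. For normally distributed values about 1 in 20 groups would hold such a value by chance. The test ran on unlogged values, which may be skewed, so that rate may not hold here. The groups are also not independent, since the 9 genes vary together. Cow 4319 accounts for 13 of them. In control libraries it measured 276 normalised CPM for ND1 (next 149), 15.8 for ND2 (next 5.68), 95.2 for ND4 (next 57.2), 49.97 for ND5 (next 25.2) and 243 for ATP6 (next 128). In lysine libraries it measured 552 for ND1 (next 204), 35.3 for ND2 (next 9.41), 220 for ND4 (next 82.4), 149 for ND5 (next 46.4), 452 for CYTB (next 150), 1338 for COX2 (next 499) and 464 for ATP6 (next 165). Its summed share of the 9 genes with lysine was 1.37% of all counts, against 0.542% in the next library. Its lysine library had the smallest total of all (5.45 M counts), while its control library had 31.1 M. The part of depth or RNA quality in these values was not tested.

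ND4 made up 0.904% of the 9 genes in the control of cow 4394, against 1.49% in the next control library.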

How the results depend on the processing

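The count of 0 members for lysine was the same in all 14 alternatives, among them no replicate block (0 of 9; log2 fold change 0.33 for COX1 and 0.86 for ND2), and the block changed no call. For the cow effect, 0 members became 8 with DESeq2, 2 with limma voom, 2 without a low-count filter and, leaving out cows in turn, 0 to 6; for the P order 0 became 0 to 7 with a cow left out, and for the B code it remained 0 in 13 alternatives. Signs of the lysine effect were not stable. With library totals as the only scaling it was -0.10 for ND1, -0.18 for ND4, -0.24 for CYTB, -0.25 for COX1, -0.11 for COX2, -0.20 for COX3 and -0.12 for ATP6, and with limma voom -0.015 for COX1. With a cow left out it ran from -0.014 to 0.63 for ND1, -0.069 to 0.55 for ND4, -0.12 to 0.52 for CYTB, -0.13 to 0.46 for COX1, -0.0019 to 0.58 for COX2 and -0.083 to 0.48 for COX3, while ATP6, ND2 and ND5 stayed above 0. The B code difference of ND2 was -0.031 with limma voom; with a cow left out it ran from -0.14 to 0.70 for ND2, -0.30 to 1.39 for ND4, -0.39 to 0.98 for ND5, -0.18 to 1.58 for CYTB, -0.055 to 1.501 for COX2 and -0.043 to 1.38 for COX3. The P order difference of ND2 was 0.22 with library totals and 0.093 with limma voom; with a cow left out it ran from -2.63 to 0.95 for ND1, -1.13 to 1.06 for ND2, -2.56 to 0.58 for ND4, -1.78 to 0.95 for ND5, -2.86 to 0.75 for CYTB, -2.47 to 0.53 for COX1, -2.21 to 0.82 for COX2, -2.15 to 0.90 for COX3 and -2.62 to 0.75 for ATP6. The median r of the pairs ran from 0.92 to 0.98 for within-cow differences and from 0.90 to 0.98 for cow means. The mean difference of the summed share ran from -0.077 to 0.19 percentage points with a cow left out. The cause of these shifts was not tested. ND2 had the fewest counts of the 9 genes, down to 46 in a library.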
